A study of Arabidopsis thaliana with 27 samples.

Results

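Of 24607 Arabidopsis thaliana loci listed in at least 1 library, 163 were under FPKM 1 in each of the 12 Columbia (Col) libraries from the egg cell to the 1-cell embryo and at FPKM 5 or more in each of the 3 libraries of the 32-cell embryo. FPKM counts fragments per kilobase of a transcript relative to all fragments mapped in the library, and loci missing from a table were set to 0. In all, 4405 loci stayed under 1 in the 12 earlier libraries, and 12257 reached 5 in every 32-cell library. The same thresholds applied 1 step earlier, with the 1-cell embryo as the first stage at 5 or more, gave 51 loci.

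The Col groups were mature egg cells (EC), zygotes 14 and 24 hours after pollination (Zy14, Zy24), 1-cell embryos (1C) and 32-cell embryos (32C), all of accession Col. The remaining 4 groups were hybrid zygotes at the same hours from reciprocal crosses with Landsberg erecta (Ler). LZy14 and LZy24 had a Ler mother and a Col father, and CZy14 and CZy24 a Col mother and a Ler father. Each of the 9 groups had 3 libraries of poly(A) RNA amplified from few cells, from plants grown in a greenhouse under long days, and no hybrid embryo later than 24 hours was analysed here. The labels do not say whether libraries of a group came from separate plants, so p-values measure the spread between these libraries, which may be technical.

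An Arabidopsis zygote divides into an apical cell, which builds most of the embryo, and a basal cell, which builds the suspensor. By the 32-cell stage the outer cells form the protoderm, the future epidermis that lays down a cuticle of cutin and wax, around inner cells that give ground and vascular tissue. This patterning depends on auxin flow and response, on homeodomain, HD-ZIP III and KANADI transcription factors, and on small secreted peptides read by receptor kinases.

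The values that chose the genes were their levels in all 15 Col libraries. The contrast of 32C with the earlier stages is therefore a description here and was not tested for these genes, and tests are given for them only among the 12 hybrid libraries.

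LZy14 replicate 3 stood apart from the rest. Over loci at 5 or more in a library of the group, its values lay between those of replicates 1 and 2 at 87.6%, against 5.53% to 62.0% in the other 26 libraries, each set against the 2 others of its group. Of 425 loci listed at 0 in one of LZy14 replicates 1 and 2 and at 5 or more in the other, 1 was listed at 0 in replicate 3. Its correlation with the mean of those 2 libraries was 0.997, against 0.802 to 0.988 elsewhere. Member calls lost without it are named below. The counts of members seen in any hybrid library include it, and the cause was not tested.

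In the 32-cell libraries, 6 of 7 embryo markers outside the 163 were at FPKM 1 or more in all 3 libraries, while the shoot meristem gene STM was listed at 0. The 3 egg cell EC1 genes were listed at 0. Of 11 endosperm markers listed in some library, 4 were listed at 0 in all 3 libraries (MEA, PHE2, AGL28 and IKU2). The summed level of 4.93 to 6.77 was nearly all AGL80, at 6.52, 5.75 and 4.93. STK, a seed coat and integument marker, is one of the 163 genes. Of 15 other such markers listed in some library, 8 were listed at 0 in all 3 libraries (TT8, TT10, TT16, BAN, TT3, LDOX, SHP1 and INO), and the summed level of 15.51 to 20.56 was nearly all MUM4, at 20.3, 14.9 and 15.1. The tables hold no fragment counts. In 32C, steps in the low values put FPKM 5 at roughly 84.7 to 95.2 fragments per kilobase of transcript, after subtracting 0.1 kb from its length, so no counting interval is given.

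The 250 bases upstream of the annotated start are shown for the 5 genes with the highest 32C levels, which hold 59.9% of the summed 32C level of the 163, and for the lipid genes ADS1 and LACS2, chosen after their motifs were seen. They were read by locus name from RefSeq's annotation and genome TAIR10.1, a later release than the TAIR10 named in the submitters' processing notes. Capitals mark the RY element (CATGCA or TGCATG), a core bound by B3 factors of seed development such as ABI3, and the L1 box (TAAATGCA or TAAATGTA, or their complements), bound by the epidermal factors ATML1 and PDF2.

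PDF1, chr2:17827649-17827898, minus strand: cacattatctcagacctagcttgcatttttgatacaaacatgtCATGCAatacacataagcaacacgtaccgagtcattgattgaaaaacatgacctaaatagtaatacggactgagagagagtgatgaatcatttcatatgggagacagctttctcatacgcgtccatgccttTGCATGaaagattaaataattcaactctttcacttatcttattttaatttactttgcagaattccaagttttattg
MLP28, chr1:26711588-26711837, minus strand: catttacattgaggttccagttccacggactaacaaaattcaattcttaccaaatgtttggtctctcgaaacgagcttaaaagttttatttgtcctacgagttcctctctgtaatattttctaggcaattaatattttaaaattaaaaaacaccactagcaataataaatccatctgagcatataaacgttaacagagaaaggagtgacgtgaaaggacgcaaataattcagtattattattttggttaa
AT1G71691, chr1:26951548-26951797, minus strand: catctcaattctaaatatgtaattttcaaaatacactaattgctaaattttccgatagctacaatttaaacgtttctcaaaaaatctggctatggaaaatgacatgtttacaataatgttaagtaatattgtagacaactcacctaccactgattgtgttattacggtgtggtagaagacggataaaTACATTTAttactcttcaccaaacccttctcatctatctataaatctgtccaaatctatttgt
AT2G28790, chr2:12355571-12355820, minus strand: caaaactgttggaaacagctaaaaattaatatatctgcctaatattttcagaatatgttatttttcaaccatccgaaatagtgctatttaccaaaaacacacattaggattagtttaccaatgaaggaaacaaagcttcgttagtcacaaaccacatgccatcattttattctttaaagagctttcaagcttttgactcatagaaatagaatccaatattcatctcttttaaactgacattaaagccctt
AT1G47540, chr1:17456187-17456436, minus strand: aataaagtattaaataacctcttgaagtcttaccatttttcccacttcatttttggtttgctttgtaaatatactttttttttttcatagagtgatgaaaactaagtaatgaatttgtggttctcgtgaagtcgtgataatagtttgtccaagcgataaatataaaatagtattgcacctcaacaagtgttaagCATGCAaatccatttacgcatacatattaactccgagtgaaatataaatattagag
ADS1, chr1:1843213-1843462, plus strand: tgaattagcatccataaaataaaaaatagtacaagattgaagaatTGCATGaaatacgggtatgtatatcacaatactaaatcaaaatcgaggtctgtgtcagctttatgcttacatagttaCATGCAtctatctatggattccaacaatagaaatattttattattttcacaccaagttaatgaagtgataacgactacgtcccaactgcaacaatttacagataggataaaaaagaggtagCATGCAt
LACS2, chr1:18290692-18290941, plus strand: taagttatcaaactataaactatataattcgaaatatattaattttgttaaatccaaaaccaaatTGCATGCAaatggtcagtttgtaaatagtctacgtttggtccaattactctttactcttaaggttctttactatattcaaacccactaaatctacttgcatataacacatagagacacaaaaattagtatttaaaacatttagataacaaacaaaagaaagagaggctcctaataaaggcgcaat

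PDF1 held 2 RY elements, at 207 to 202 and 76 to 71 bases before the start, ADS1 held 3, LACS2 held 2 that overlap each other, and AT1G47540 held 1, at 56 to 51 bases before it. AT1G71691 held an L1 box 63 to 56 bases before the start. MLP28 and AT2G28790 held neither.

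The RY element was found in 23 of the 160 members with a promoter in the annotation (14.4%, 95% Wilson interval 9.77% to 20.6%), against 8.43% of all 27443 protein-coding promoters and 6.18% of those of the other loci at 5 or more in 32C. Besides the genes shown, its carriers included AtVEX1, IAA30, STK and NAC084. The site II element TGGGCC, bound by TCP factors, was found in 8 (5.0%, interval 2.56% to 9.56%), against 13.7% of all promoters and 21.8% of those of the other loci at 5 or more in 32C. The auxin response element TGTCTC was found in 16.3% of members (11.3% to 22.7%) and 10.9% of all promoters. The L1 box was found in 5.63% (2.99% to 10.3%) against 4.49%. The other 6 motifs searched were the G-box CACGTG (8.13% against 6.49%), the auxin response element TGTCGG (6.25% against 4.16%), E2F sites TTTCCCGC, TTTGGCGC or TTTCCCCC (0.625% against 1.53%), the telo-box AAACCCTA (2.5% against 4.49%), the I-box core GATAAG (16.3% against 12.3%) and TATAAA (51.9% against 47.3%). Both strands were searched, none of these motifs contains another, and the intervals cover counting error only. A match is a description of the letters and not a site.

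**Figure D1:**
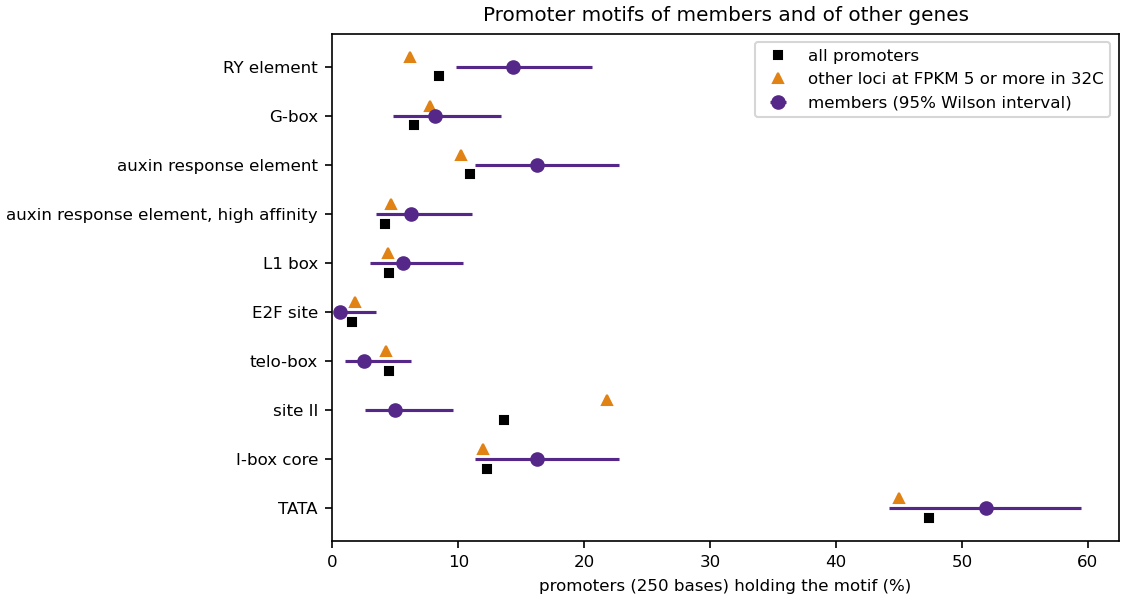
Share of 250-base promoters holding each of 10 motifs (x axis, percent): purple circles are the 160 members with 95% Wilson intervals, black squares all 27443 promoters, and orange triangles the other loci at FPKM 5 or more in 32C. The RY element stands at 14.4% in members and 8.43% in all promoters, and site II at 5.0% and 13.7%.

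In 32C the mean level of the 163 genes ran from FPKM 5.97 to 3094, with a median of 15.5 and quartiles of 10.14 and 36.7. Of the 163, 10 were at 100 or more, 56 between 20 and 100, and 97 under 20. The other 12094 loci at 5 or more in 32C had a median of 26.9. Together the 163 genes made up 1.14%, 1.34% and 1.42% of the summed FPKM of the 3 32C libraries, and at most 0.00216% of that of an earlier Col library.

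Within 32C the members varied more between libraries than other genes did. Their median coefficient of variation was 19.4%, against 10.4% for the other 12094 loci, which have higher levels. In 29 of them the highest library was more than 2 times the lowest. The steadiest was GLN1;5, a cytosolic glutamine synthetase, at FPKM 159, 157 and 157, and the most variable was MCT1, an RNA-binding protein of the MEI2 type, at 5.07, 25.4 and 11.7. Replicate 3 held the highest value of 72 members (44.2%, against 36.3% of the other loci) and replicate 1 of 39 (23.9% against 35.8%).

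Before 32C the genes were seldom listed at all. In the 12 earlier Col libraries 73 were listed at 0 throughout, 40 were above 0 in 1 library and 50 in 2 or more, and 97 stayed under 0.1 in each. The number above 0 was 4, 1 and 7 in EC, 46, 17 and 19 in Zy14, 27, 6 and 4 in Zy24, and 14, 23 and 26 in 1C. The most was in Zy14 replicate 1, at 28.2% of the members, where 28.1% of all 4405 low loci were also above 0. In 1C replicate 3 it was 16.0% of members against 8.72% of the low loci.

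**Figure D2:**
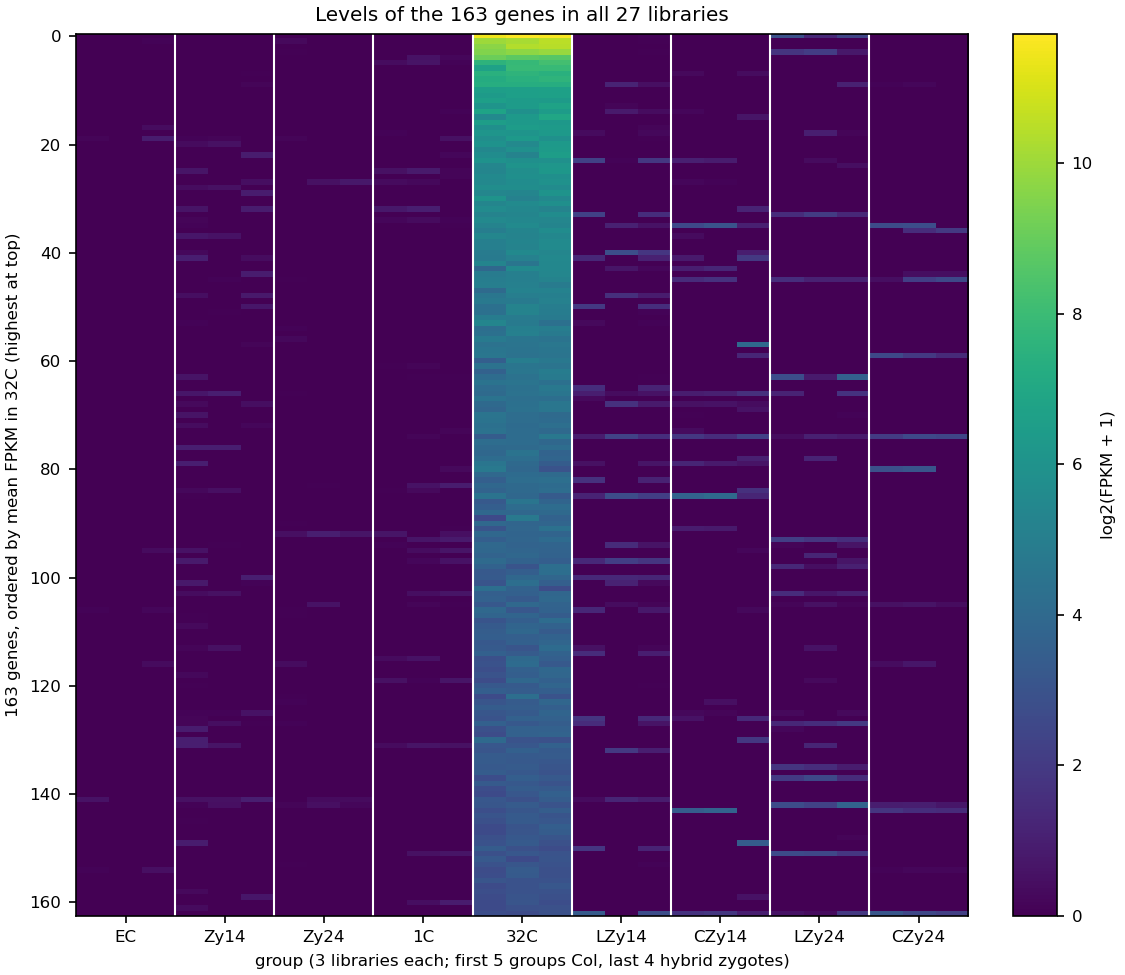
Levels of the 163 genes (rows, ordered by mean FPKM in 32C) in the 27 libraries (columns, 3 per group), as log2(FPKM + 1) in colour. The rule fixes the dark columns of the first 4 groups and the bright 32C block. In the hybrid zygotes, which the rule did not use, 112 of the 163 genes reached FPKM 1 in no library and 51 in at least 1. Of all 4405 loci low in the earlier Col libraries 1356 reached it in at least 1, a similar share.

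The thresholds cut a continuous range. The lowest single 32C values inside were those of MCT1 (5.07), WAKL4 (5.14) and PRF5 (5.26), and the nearest outside were AT5G57130 (4.98), TLP18.3 (4.97) and AT3G05300 (4.97). The highest earlier values inside were those of AT2G26730 (0.99), AT2G39410 (0.99) and AT1G29952 (0.98), and the nearest outside were AT1G05370 (1.01), PAR2 (1.02) and AT2G41090 (1.02). Another 69 loci missed only by an earlier value between 1 and 2, and 18 only by a 32C value between 4 and 5.

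Epidermis and lipid genes stood at both high and low levels. PDF1 (AT2G42840), which encodes a proline-rich wall protein of the protoderm and outer meristem layer, was at FPKM 2829.6, 3364 and 3088 in 32C (mean 3094 ± 267, SD, n = 3), the seventh highest mean of all loci, and was listed at 0 in all 12 earlier Col libraries. AT1G71691, a GDSL lipase of the family that includes cutin enzymes, was at 821, 1320.4 and 1413 and was listed at 0 in all other 24 libraries. All 3 libraries held both genes at high levels, with AT1G71691 lowest in replicate 1. AT1G71691 overlaps AT1G71690 on the opposite strand by 506 bases, and that gene was at 1.47 in 32C.

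ADS1, a fatty acid desaturase, was at 173, 198 and 174, and LACS2, an acyl-CoA synthetase that makes cutin precursors, at 40.0, 64.5 and 70.1. CER6, which elongates very-long-chain fatty acids for wax, was at 6.74, 16.3 and 8.79. TWS1, the precursor of a peptide that monitors the embryo cuticle, was at 11.3, 9.07 and 14.3. LACS2 and CER6 were lowest in replicate 1. ADS1 was above LACS2 and LACS2 above CER6 and TWS1 in every library, while the values of CER6 and TWS1 overlap. KCR2, HCD1 and KCS12, further enzymes of fatty acid elongation, stood at 13.4 ± 6.19, 21.3 ± 8.98 and 10.15 ± 0.328 (SD, n = 3). By product description 12 members were lipid, wax and cuticle genes, 7.36% of members against 0.938% of all loci at 5 or more in 32C.

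Transcription factors were the largest class by product description, with 30 members, 18.4% against 3.08% of all loci at 5 or more in 32C. These shares describe the 163 genes, which were chosen on the same levels, and no test was made of them. TMO5, a bHLH factor that starts vascular divisions downstream of auxin, was at 27.9, 46.2 and 41.1, and TMO6, a Dof factor that is another auxin target, at 7.21, 10.2 and 16.4. TMO5 was above TMO6 in all 3 libraries. The KANADI genes KAN2 and ATS, which set abaxial identity, were at 7.40 ± 1.04 and 9.17 ± 1.74, and WIP4, a zinc finger gene of root founder cells, at 38.9 ± 8.03 (SD, n = 3).

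ABI3, a B3 regulator of seed maturation, was at 10.9, 17.0 and 18.3, and STK, a MADS-box gene best known from ovule identity, at 14.2, 15.1 and 16.3. ABI3 was listed at 0 in all 12 earlier libraries, and STK was above 0 in 3 of them, up to 0.83 in 1C. Other members of this class were MEE3 (85.6 ± 20.3), SHI (42.3 ± 6.18), HAM1 (12.5 ± 2.69), WOX11 (8.76 ± 0.575) and AGL12 (9.64 ± 3.55; SD, n = 3 each). ZPR3 and ZPR4, small leucine zipper proteins that bind and block HD-ZIP III factors, were at 96.1 ± 2.90 and 47.3 ± 14.8, and ZPR4 was annotated as a non-coding RNA in the table used for names.

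IAA30, IAA1, IAA13, IAA19 and IAA2 encode Aux/IAA repressors, and BRU6 a GH3 enzyme that joins auxin to amino acids. IAA30 was at 112, 57.9 and 85.4, BRU6 at 45.4, 80.5 and 121, and IAA1 at 61.4, 45.1 and 77.8. The libraries of these 3 genes overlap, so their order is not set. IAA13 was at 33.6 ± 6.23, and IAA19 and IAA2 at 12.1 ± 2.78 and 11.6 ± 3.29 (SD, n = 3). IAA13 shares 1176 bases with AT2G33300 on the opposite strand, which was listed at 0 in 32C.

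DWF4, the rate-limiting hydroxylase of brassinosteroid synthesis, was at 81.3, 96.3 and 99.1 and was listed at 0 in every other library. PYL2, an abscisic acid receptor, was at 31.0 ± 2.37, and ARR7, which dampens cytokinin signalling, at 17.97 ± 1.72. CYP735A2, which makes trans-zeatin cytokinins, was near the lower bound, at 6.33, 7.96 and 7.09. DWF4 was higher than the other 3 in every library.

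Secreted peptides and defensin-like proteins counted 10 members, 6.13% against 0.131% of all loci at 5 or more in 32C. AT1G47540, a knottin-like protein, was at 544, 438 and 396 and was above 0 before 32C only in 1C, at 0.5 and 0.14. AT1G32583, annotated as a tapetum determinant protein, was at 51.6 ± 8.36 and AT1G80133, of the epidermal patterning factor family, at 39.9 ± 2.55. CLE17 and CLE22, of the CLAVATA3-related family, were at 39.4 ± 7.35 and 10.7 ± 4.37, and RGF8, of the root meristem growth factors, at 34.1 ± 10.02 (SD, n = 3 each). On the receptor side AT1G33590, a leucine-rich repeat protein without a named role, was at 190.0, 229 and 295, and was seen in 1C at 0.31, 0.52 and 0.09. The 8 receptor-like and kinase members were 4.91% of members, against 5.11% of all loci at 5 or more in 32C.

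**Figure D3:**
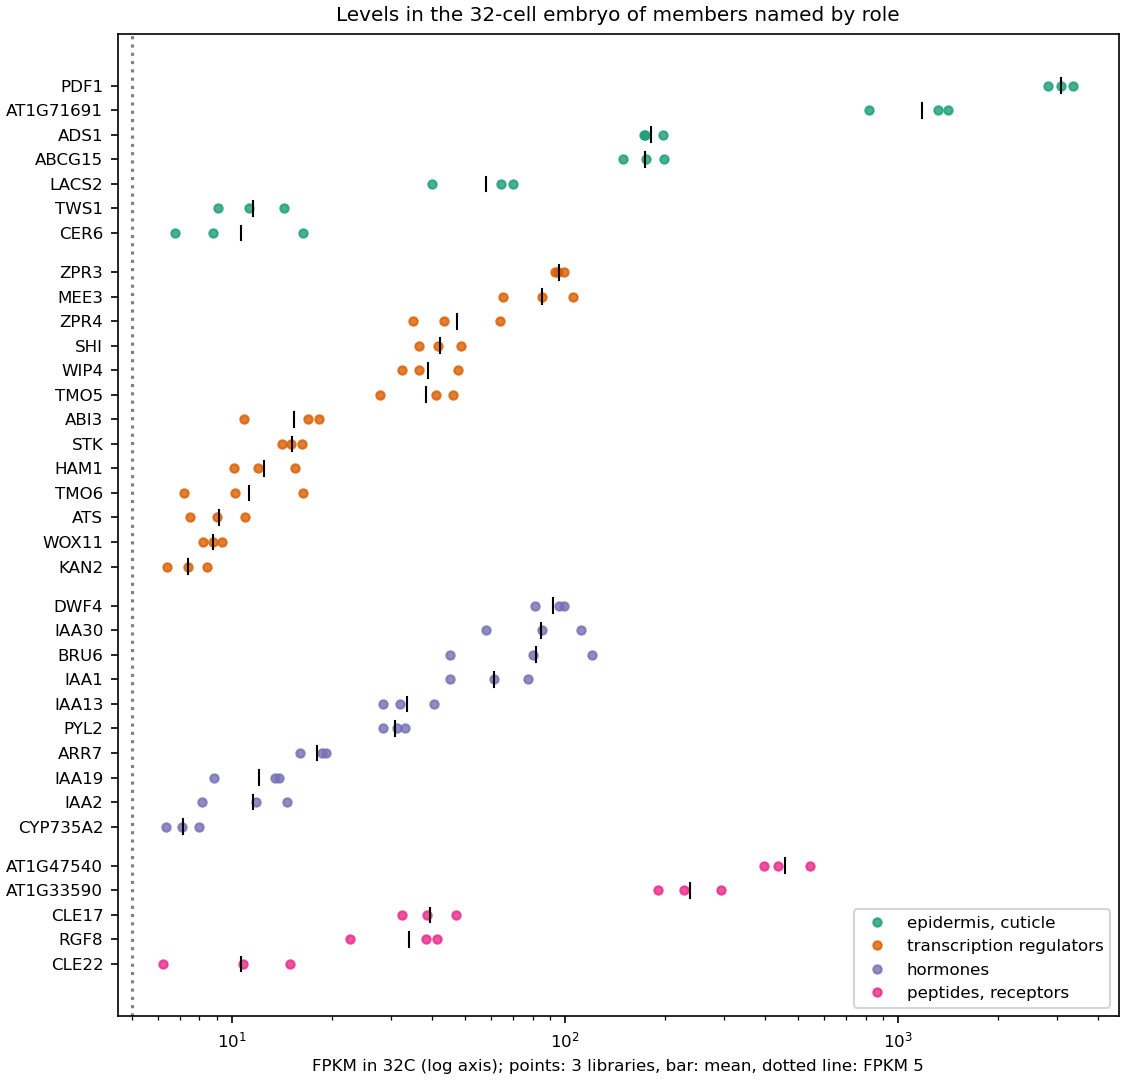
FPKM in the 3 32C libraries (points; log axis) and their mean (black bars) for 35 members grouped by role, with the lower bound of the rule at 5 as a dotted line. PDF1 lies between 2829.6 and 3364 and CYP735A2 between 6.33 and 7.96.

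Other abundant members had roles in defence-like proteins, transport and metabolism. MLP28, of the major latex protein family, was at 1022, 1175 and 1449, and AT2G28790, of the thaumatin family, at 719, 839 and 953. Both were lowest in replicate 1 and highest in replicate 3. ABCG15, a half-size ABC transporter, was at 174 ± 24.9, and AT3G15680, with Ran-binding type zinc fingers, at 104, 239 and 236. The sugar transporters SWEET9 and AtVEX1 were at 61.2 ± 21.0 and 47.3 ± 8.22, and ICL, isocitrate lyase of the glyoxylate cycle, at 42.2 ± 2.19. Cell wall genes counted 13 (7.98% against 1.45%), led by the expansin EXPA6 (63.1 ± 12.2) and the cellulase CEL2 (55.3 ± 16.1; SD, n = 3 each), and include TWS1, whose product description names a glycosyl hydrolase. Transport genes counted 11 (6.75% of members against 2.64% of all loci at 5 or more in 32C), auxin genes 7 (4.29% against 0.383%) and cytochrome P450 genes 5 (3.07% against 0.228%). Proteases counted 4 (2.45% against 2.02%), F-box and RING proteins 3 (1.84% against 2.91%) and uncharacterized proteins 6 (3.68% against 5.15%). Photosystem proteins counted 2 (1.23% against 0.261%), LHCB4.3 at 23.8 ± 3.13 and PSBY at 9.84 ± 1.39. In no class were 53.

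As structures, 160 of the 163 were protein coding. Their median length was 316.5 residues, against 386 for the other loci at 5 or more in 32C, and 23.8% had a single coding exon against 12.8%. They lay on all chromosomes (45, 34, 36, 15 and 32 on chromosomes 1 to 5), with 3 pairs of direct neighbours: AT1G47530 with AT1G47540, AT1G71691 with AGL12, and CYP710A3 with CYP710A4. The last pair, sterol desaturases, is 95.8% identical in coding sequence, so its values of 10.7 and 42.2 may share reads. PP2-B14 (40.1 in 32C) likewise is 91.1% identical to PP2-B13, which was at 139 and is not a member. In all 21 members overlap another protein-coding gene, 20 of them on the opposite strand, and the sources used here do not say that counting used strand. The levels of QWRF4, RABC2b and 4CL5, whose partners were at 24.3 to 76.7 in 32C, are thus uncertain. In earlier Col libraries, where these members were under 1, their partners reached 82.5, 79.1 and 18.8. HB24 overlaps AT2G18340, at 97.7 in 32C, by 98 bases. AT1G20925 overlaps CDKB2;2, at 31.3 in 32C, by 192 bases, and AT2G16630 overlaps TOC132, at 19.4, by 76. On the same strand AT3G50800 shares 126 bases with AT3G50790, at 13.8 in 32C. The levels of these members are uncertain too. The part of the partners in these levels was not tested.

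The genes of the same pathways that are not members were compared between 32C and 1C. With limma on log2(FPKM + 1) over the 15 Col libraries, 18481 genes were tested, and 21% were called, 12.5% higher and 8.52% lower in 32C. A call needed a Benjamini-Hochberg adjusted p below 0.05 together with a log2 change of 1 or more in size. The median change over all genes was 0. These lists describe the surroundings of the 163 genes and exclude them. Of 29 other embryo patterning regulators tested, 17 rose and 0 fell, with a median log2 change of 2.16. NTT, a zinc finger gene related to WIP4, was listed at 0 in 1C and was at 26.1, 26.97 and 26.4 in 32C, and SHR, a radial patterning gene, went from 0 in all 3 libraries to 18.95, 20.5 and 19.95 (adjusted p 2.5e-07 and 1.43e-07). CUC2, an organ boundary gene, went from 0 to 8.10, 26.9 and 32.7 (adjusted p 4.21e-05). WUS, the stem cell regulator, was listed at 0 in 1C and was at 7.29, 7.38 and 4.36 in 32C. It is not one of the 163, since a 32C library was under 5 and Zy14 replicate 3 was at 1.6.

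Of 21 other auxin genes tested, 15 rose and 1 fell (ARF17), with a median log2 change of 2.36. The influx carrier gene LAX2 went from 0.13, 0.10 and 0 to 62.2, 46.0 and 47.5 (log2 change 5.61, adjusted p 5.66e-09), and the auxin synthesis gene YUC3 from 4.88, 0 and 1.93 to 103, 92.2 and 95.4. Of 19 other epidermis and cuticle genes tested, 11 rose and 1 fell (GPAT8), with a median of 1.61. DCR, an acyltransferase of cutin synthesis, went from 1.41, 3.17 and 2.14 to 111, 214 and 158. FDH, an enzyme of cuticular lipid elongation, went from 6.44, 7.45 and 2.06 to 159.97, 191 and 216 (log2 change 5.03 ± 0.436, adjusted p 6.17e-07), and PDF2, the homeodomain factor that binds the L1 box, from 8.57, 7.18 and 8.60 to 101.27, 115 and 139 (3.70 ± 0.467, adjusted p 2.82e-05). In each of these genes the groups do not overlap.

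Of 33 genes tested from the photosynthesis list, 12 rose and 0 fell, with a median log2 change of 0.45. The list holds no member, and the photosystem members LHCB4.3 and PSBY are not on it. LHCB5 went from 2.28, 2.13 and 0.30 to 11.1, 13.4 and 14.9. The log2 changes of RCA, LHCB5 and PETE2 were 2.81, 2.56 and 2.39. Of 8 other maturation genes tested, 2 rose (FUS3 and L1L) and 2 fell (LEC2 and OLEO1). Of 11 D-type cyclins and CDK inhibitors, CYCD3;1 rose and KRP1 fell, and the call of KRP1 was lost on leaving out single libraries. The 5 endosperm markers tested did not pass, and GEX2 and EC1.1 were the markers of sperm and egg cell that fell. The seed coat marker SHP2 was at 7.49, 0 and 2.56 in 1C and at 0.05, 0.16 and 0 in 32C, groups that overlap, and its call (adjusted p 0.0456) was lost with a pseudocount of 0.1 (adjusted p 0.106).

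**Figure D4:**
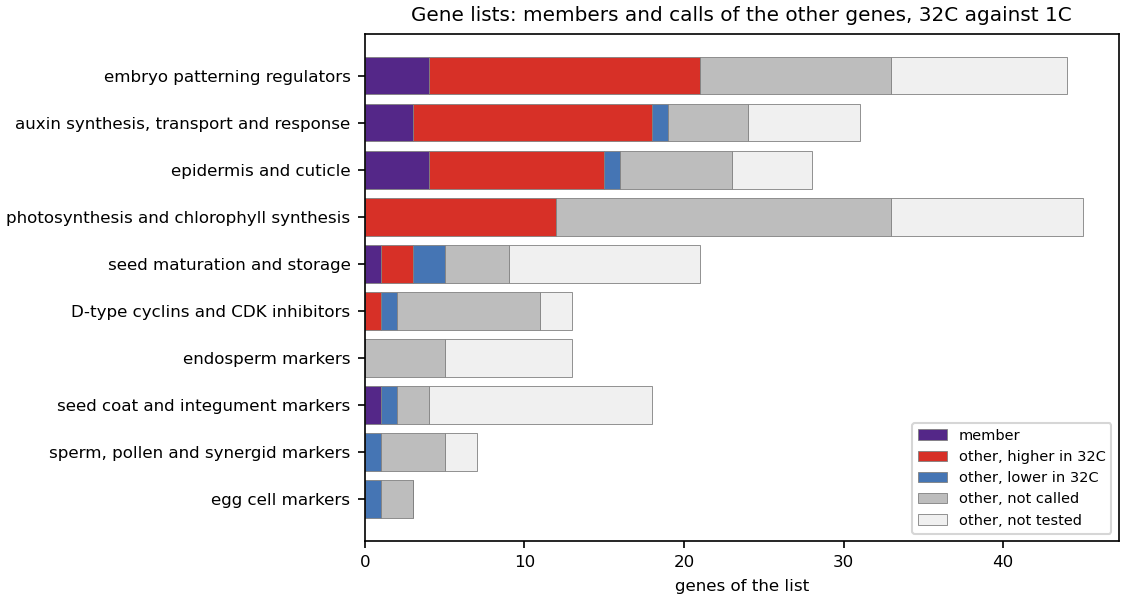
Genes in each of 10 lists (x axis, number of genes), split into members of the 163 (purple), other genes called higher (red) or lower (blue) in 32C than in 1C, other genes not called (grey) and not tested (white). The patterning, auxin and epidermis lists hold 4, 3 and 4 members and 17, 15 and 11 other genes called higher.

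In the hybrid zygotes 79 of the 163 genes were listed at 0 in all 12 libraries, 112 reached FPKM 1 in none, and 12 reached 5. In at least 1 library 51 of the 163 reached 1, and so did 1356 of all 4405 loci low in Col, a similar share. Of the 51 members, 17 reached 1 in 1 library only. Of these 51 genes 25 were listed at 0 in all 6 libraries with a Col mother and 8 in all 6 with a Ler mother, while 18 were above 0 in both crosses. These are 49.0%, 15.7% and 35.3%, and the 1356 of the 4405 low loci that reached 1 in a hybrid library gave 24.4%, 30.3% and 45.3%, a difference that was not tested. In every earlier Col library they were under 1 by the rule, so that no contrast of hybrids with Col is given. The values are from bulk samples, in which fewer cells of a type and less RNA per cell cannot be told apart.

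At 1 or more in all 3 libraries of a group were 3 members in LZy14, 4 in CZy14, 8 in LZy24 and 4 in CZy24. These are 1.84%, 2.45%, 4.91% and 2.45% of the 163, and the 4405 loci low in Col gave 1.77%, 2.00%, 1.63% and 1.63%. The LZy14 genes were NRT1.8, HAM1 and IAA19, and the CZy14 genes AT4G30470, AT2G42660, NRT1.8 and MUB6. The LZy24 genes were PDF1, CYP710A4, 4CL5, AT4G11810, PSBY, AT5G48900, AT5G42250 and CYP735A2, and the CZy24 genes AT5G53110, AT2G42660, AT5G65380 and MUB6. Low values in LZy24 put FPKM 1 at roughly 12.5 to 14.8 fragments per kilobase, and in CZy24 at 13.9 to 19.6.

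Only 20 of the 163 passed the filter of the hybrid fit, FPKM 1 or more in at least 3 of the 12 libraries. For 7 of these, PDF1, CYP735A2, AT4G11810, AT5G42250, AT5G48900, HAM1 and IAA19, the libraries at 1 or more all belong to 1 group, so the filter itself kept them for a difference, and their counts are no support. Among the other called members, NRT1.8 and CYP81D2 reached 1 only at 14 hours. CYP710A4 and PSBY did so only with a Ler mother, and AT5G53110 and AT5G65380 only with a Col mother. In contrasts between those sides the filter likewise favoured their calls, which are no support either. The other 143 members were not tested. Without a filter 84 members and 22357 genes were fitted, with 16 members called for LZy24 against LZy14 (30.5% of all genes), 5 for CZy24 against CZy14 (36.8%), 2 between the crosses at 14 hours (9.99%) and 15 at 24 hours (19%), and the calls of the 7 genes named above were also made there.

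PDF1 was at 6.17, 1.57 and 4.29 in LZy24, at 0.05, 0 and 0.09 in LZy14, and was listed at 0 in all 6 libraries with a Col mother. It was higher in all 3 LZy24 libraries than in any other hybrid library, which its passing the filter through LZy24 alone required. It stayed far below its 32C level of 3094. With limma over the 12 hybrid libraries and no filter, the difference between LZy24 and CZy24 was 2.202 on the log2(FPKM + 1) scale (adjusted p 5.58e-04), and that between LZy24 and LZy14 was 2.14 (adjusted p 2.60e-04). Against groups at 0 these differences depend on the 1 added before the logarithm and are not folds. AT2G28790, the thaumatin-like gene, did not pass the filter and showed 2.38, 3.26 and 0.71 in LZy24 and 0 in all 6 libraries with a Col mother.

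CYP735A2 was at 5.22, 4.65 and 2.57 in LZy24 and listed at 0 in the other 9 hybrid libraries. AT4G11810, an SPX-domain transporter, was at 3.50, 2.54 and 1.92, and AT5G48900, a pectin lyase-like protein, at 2.92, 4.79 and 1.75 in LZy24, and both were listed at 0 in the other 9. The 3 genes share the pattern of values in LZy24 alone. AT5G42250, a zinc-binding alcohol dehydrogenase, was at 5.70, 3.89 and 12.4 in LZy24 and at 0.90, 0.96 and 0.65 in CZy24, and was listed at 0 at 14 hours. Its highest LZy24 library was above its 32C range of 7.05 to 9.25 and the other 2 were below it.

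The contrast of LZy24 with LZy14 called 9 members, 5 higher and 4 lower, where 38% of all genes tested were called (18.3% higher, 19.8% lower). PDF1, CYP735A2, AT4G11810, AT5G42250 and AT5G48900 rose. HAM1, a GRAS factor of meristem maintenance, fell from 1.56, 3.48 and 2.52 to 0, 0 and 0.60, and IAA19 from 1.57, 1.54 and 1.37 to 0 in all 3 libraries (adjusted p without a filter 4.48e-04 and 8.95e-06). NRT1.8, a nitrate transporter, fell from 1.22, 5.68 and 3.51 to 0 (adjusted p 0.0202, without a filter 0.0308). CYP81D2 went from 3.80, 0.09 and 2.76 to 0, 0.28 and 0 (adjusted p 0.0427, without a filter 0.0495). Both genes reached 1 only at 14 hours, so the filter favoured these calls. Without LZy14 replicate 3, on the same genes, NRT1.8 (adjusted p 0.0595) and CYP81D2 (adjusted p 0.151) were not called. On the same genes both also lost their calls without any 1 of the LZy24 libraries, NRT1.8 without LZy14 replicate 2 and CYP81D2 without LZy14 replicate 1, with adjusted p up to 0.0719 and 0.159.

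The contrast of CZy24 with CZy14 called 3 members, 1 higher and 2 lower, where 45.2% of all genes were called (20% higher, 25.2% lower). AT5G53110, a RING protein, rose from 0, 0 and 1.42 to 4.87, 2.80 and 1.62 (difference 1.53 ± 0.390, adjusted p 0.00537, without a filter 0.00533). Its 3 CZy24 libraries alone met the filter, so the filter favoured this call. NRT1.8, kept by the filter through 14 hour libraries alone, fell from 12.5, 15.3 and 1.33 to 0 in all 3 libraries (adjusted p 0.00172, without a filter 0.00322). AT3G56480 fell from 0.94, 1.03 and 2.11 to 0 (adjusted p 0.0247). The call of AT3G56480 was lost without any 1 of CZy14 replicate 3 and the 3 CZy24 libraries, with adjusted p up to 0.0711 on the same genes.

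Between the crosses at 14 hours 3 members were called, where 12.7% of all genes were (4.76% higher and 7.92% lower in LZy14). HAM1 and IAA19, with the LZy14 values above, were listed at 0 in CZy14 and higher in LZy14 (differences 1.78 and 1.32, adjusted p without a filter 8.43e-04 and 6.30e-05). AT5G65380, a MATE efflux protein, was at 10.13, 12.1 and 0 in CZy14 and at 0, 0 and 0.03 in LZy14. It was lower in LZy14 (adjusted p 0.0455) and reached 1 only in libraries with a Col mother, so the filter favoured its call. Its groups overlap at 0, and its call was lost without a filter (adjusted p 0.0636), without any LZy14 library or without CZy14 replicate 1 or 2 (up to 0.165 on the same genes). Without LZy14 replicate 3, on the same genes, HAM1 and IAA19 were called too, and the genes called over the whole fit fell from 2271 to 1415.

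Between the crosses at 24 hours 9 members were called, 7 higher and 2 lower in LZy24, where 24.5% of all genes were (12.3% higher, 12.1% lower). Besides the 5 genes above, CYP710A4 was at 1.81, 3.05 and 1.48 in LZy24. PSBY, a small photosystem II subunit, was at 1.47, 1.89 and 2.79 there. Both were listed at 0 in all 6 libraries with a Col mother (adjusted p 0.0213 and 0.0053, without a filter 0.0266 and 0.00457). CYP710A4 lost its call without LZy24 replicate 1 or 2 or CZy24 replicate 2 or 3. AT5G53110, listed at 0 in LZy24, was lower there (adjusted p 0.00271, without a filter 0.00292). CYP710A4, PSBY and AT5G53110 reached 1 only in the cross where they were higher, so the filter favoured their calls. AT2G42660, a homeodomain-like factor, was also lower, at 0.33, 1.04 and 0.82 in LZy24 against 3.08, 4.96 and 4.38 in CZy24 (difference of -1.58 ± 0.416, adjusted p 0.0128). AT2G42660 was above 0 in all 12 hybrid libraries and at most 0.12 in the earlier Col libraries. Its call was lost without LZy24 replicate 1 (adjusted p 0.0571 on the same genes).

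**Figure D5:**
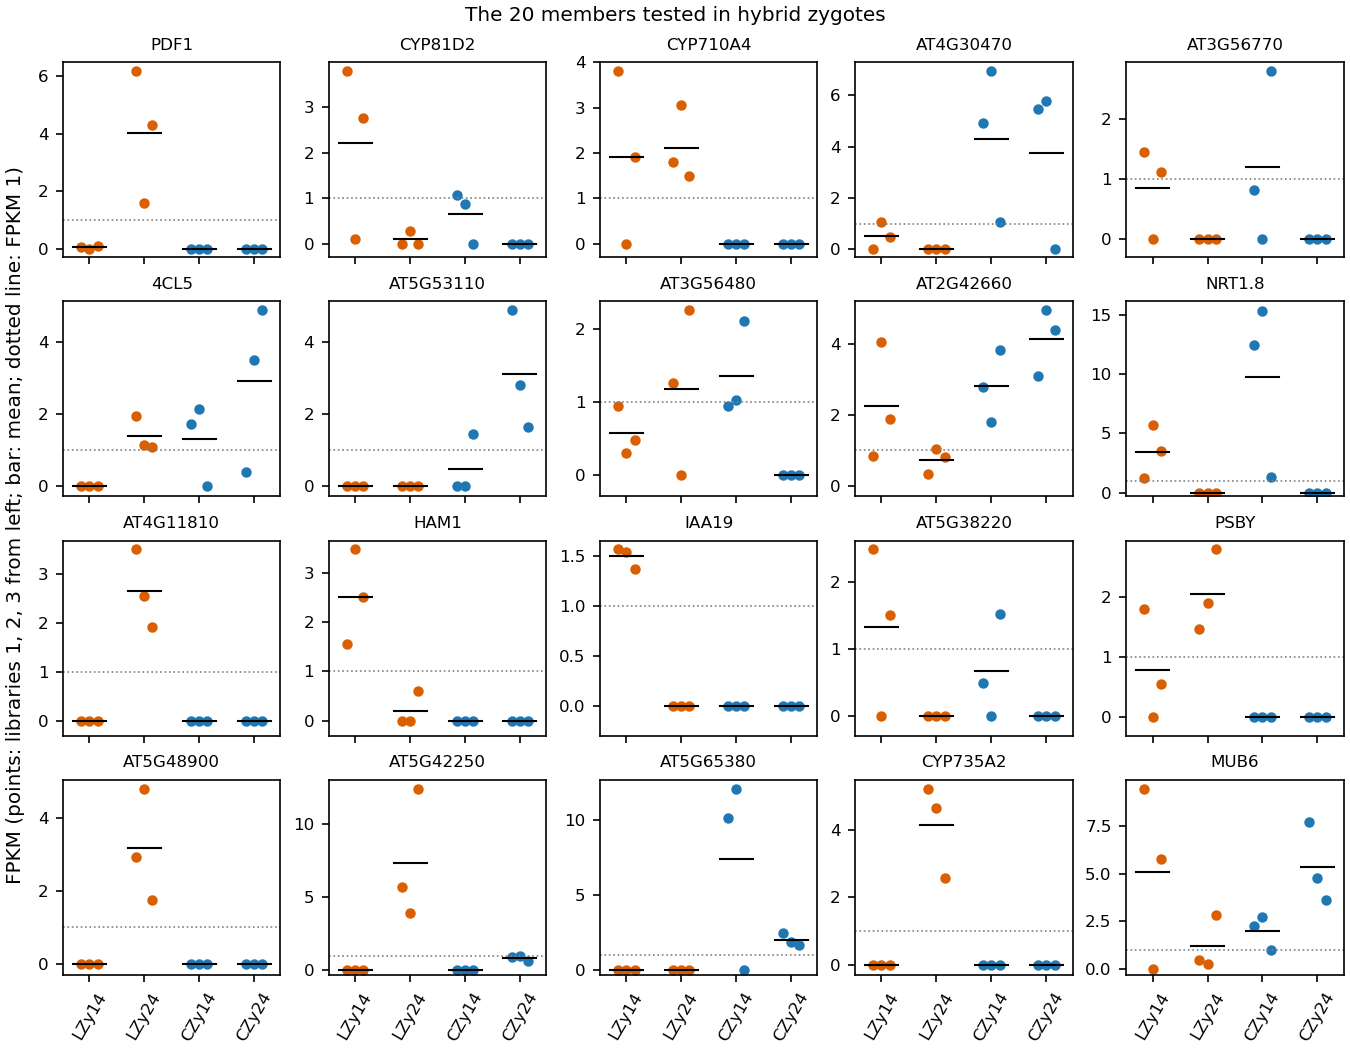
FPKM of the 20 members tested in hybrid zygotes (y axes, separate scales) in LZy14 and LZy24 (orange, Ler mother) and CZy14 and CZy24 (blue, Col mother); points are libraries 1, 2 and 3 from the left, bars means, and the dotted line FPKM 1. PDF1, CYP735A2, AT4G11810 and AT5G48900 stand above 1 only in LZy24, and HAM1 and IAA19 only in LZy14.

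The change from 14 to 24 hours was also compared between the crosses, in the same limma fit, where 24.8% of all genes were called. The 7 members called were those that the filter kept through 1 group, and their values of this difference are given in the closing section.

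The summed FPKM of the seed coat markers was 170.44 to 174.3 in LZy14, 45.8 to 98.4 in CZy14, 0.78 to 3.79 in LZy24 and 4.49 to 16.32 in CZy24. At 14 hours most of it was MUM4, with mean FPKM 146 in LZy14 and 71.6 in CZy14, and 249 in egg cells. In LZy24 MUM4 was at a mean of 0.65, beside SHP2 at 1.05 and TT3 at 0.52. In CZy24 MUM4 was at 5.49, beside TT8 at 4.73. The summed FPKM of the endosperm markers was 14.41 to 17.89 in LZy14, 13.24 to 58.11 in CZy14, 14.26 to 16.74 in LZy24 and 3.79 to 9.68 in CZy24. The part of these tissues in the hybrid differences was not tested.

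LZy14 replicate 3 also lay between the 2 other libraries for members that did not reach 1 in all 3. TMO5 was at 0, 6.10 and 2.65, ATS at 0, 2.81 and 0.98, and ABI3 at 2.15, 0 and 1.2 in LZy14 replicates 1 to 3. Of these, TMO5 was above 0 elsewhere among the hybrids in CZy14 replicate 3, at 0.91, and the other 2 were not. Replicate 3 had 45 members above 0, against 24 and 19 in replicates 1 and 2, and 14 at 1 or more, against 15 and 13. Single libraries held some of the highest hybrid values of the 163, such as 15.1 for the defensin-like AT3G05730 and 9.53 for the Ovate family gene AT2G36026, both in CZy14 replicate 3 and both listed at 0 in the other 11 hybrid libraries. The pectin methylesterase inhibitor gene AT1G62770 was at 5.74, 0.79 and 11.4 in LZy24 and 0 in all libraries with a Col mother.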

How the data were processed

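RNA from 27 libraries (9 groups of 3) was measured. Per the labels' protocols, mRNA was taken with the Dynabeads mRNA DIRECT Micro kit, amplified with SMART-Seq v4 and built into libraries with NEBNext Ultra DNA. Per the submitters' processing notes, TopHat2, RSEM and TAIR10 were used, with no versions or strand setting given. The authors deposited FPKM values per gene, 1 table per library, with FPKM sums of 746880 to 940210 and 14902 to 20062 loci above 0. They hold no counts, so depth is known only roughly.

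Groups were taken from the labels. The members, gene lists and tests were chosen with earlier results of these data known, and the product classes and the ADS1 and LACS2 promoters after values were seen. Named were the 10 members highest in 32C, members in a list, members at FPKM 1 or more in all 3 libraries of a hybrid group or called in one, the 2 highest of each class, those nearest the thresholds, and up to 3 called genes of each list with the largest change. Others named were chosen after their values were seen. One gene that this rule names is not reported here. Values were tested as log2(FPKM + 1) with limma 3.58.1 (R 4.3.3), with trend and robust moderation, on genes at FPKM 1 or more in at least 3 libraries, and called at a Benjamini-Hochberg adjusted p under 0.05 with an absolute log2 change of at least 1. Col and hybrid libraries were fitted separately. Names, transcripts and promoters came from RefSeq TAIR10.1, which matched 24511 of 24607 loci. Copies were sought with BLAST+ 2.17.0. Python 3.11.15, numpy 2.4.6, pandas 2.3.3, scipy 1.17.1 and matplotlib 3.10.9 were used. The fits were tested on simulated data. Alternatives were other pseudocounts, filters, scalings and thresholds, the replicate number as a block, and each library left out.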

Additional observations from a re-analysis of the deposited data

Results flagged for a closer look

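For 7 of the 163 genes the change from 14 to 24 hours differed between the 2 hybrid crosses by a test of the difference itself (limma, adjusted p under 0.05). On the log2(FPKM + 1) scale, the change with a Ler mother minus that with a Col mother was 2.32 for CYP735A2 (adjusted p 0.0014), 2.14 for PDF1 (0.00738), 2.05 for AT5G42250 (0.0104), 1.99 for AT5G48900 (0.00457) and 1.85 for AT4G11810 (0.00308). It was -1.55 for HAM1 (0.0169) and -1.32 for IAA19 (0.00971). Each passed the filter through libraries of 1 group, so a difference was required of them and the p-values are given as a description, and most other groups are listed at 0. All 3 libraries of the group that holds the values share each direction, which the filter also required. The cause was not tested.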

How the results depend on the processing

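Lowering the 32C threshold to FPKM 2 gave 263 genes and raising it to 10 gave 93, and other scalings kept 144 of 158 (equal sums), 163 of 174 (median of ratios) and 126 of 144 (quantile) genes in common with the 163. Without a filter the members called were 16 for LZy24 against LZy14 (30.5% of all genes), 5 for CZy24 against CZy14 (36.8%) and 15 between the crosses at 24 hours (19%). With a filter at FPKM 5 they were 1, 1 and 0, with 0 at 14 hours. Quantile scaling gave 6 for CZy24 against CZy14. For the filter at 5 and for quantile scaling, shares over all genes or low loci are not given. Member counts in those settings are thus not read against a background. With the filter at 5, list genes called lower in 32C numbered 4 in place of 8. At FPKM 5 the members detected in all 3 libraries were 0 in each hybrid group, and quantile scaling gave 1 in LZy14, 1 in CZy14 and 8 in CZy24. In the shorter window of 100 bases next to the start, the RY element was in 5.63% of members against 3.10% of all promoters. The G-box was in 3.75% against 3.61%, TGTCTC in 5.63% against 4.52% and TGTCGG in 3.13% against 1.77%. The L1 box was in 1.88% against 1.64%, site II in 1.25% against 8.81% and the I-box core in 8.13% against 5.17%. TATAAA was in 28.8% against 25.8%, E2F sites in 0.625% against 0.696% and the telo-box in 1.25% against 2.33%. Leaving out single libraries gave 163 to 186 members. Without LZy14 replicate 3, on the genes of the full fit, 1415 genes were called at 14 hours. Calls over all genes ranged from 5730 to 6733 (LZy24 against LZy14), 7246 to 7798 (CZy24 against CZy14), 1305 to 2247 (14 hours) and 3219 to 4440 (24 hours), and members called from 2 to 8, 2 to 4, 0 to 4 and 2 to 9. The low ends come with fewer genes passing the filter: on the genes of the full fit, an alternative chosen after seeing the data, the members called ranged from 7 to 10, 2 to 4, 2 to 5 and 7 to 9. List genes called ranged from 50 to 59 higher and 6 to 8 lower, and detected members from 3 to 12 in LZy14, 4 to 6 in CZy14, 8 to 12 in LZy24 and 4 to 6 in CZy24. No result that was recomputed changed direction.

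Replicate numbers did not pair the samples, since same-numbered libraries correlated at -0.026 to 0.070 in their deviations. With the replicate number as a block, 6771, 8125, 2144 and 4331 genes and 8, 3, 3 and 10 members were called in the 4 contrasts, and CYP81D2 was not called (adjusted p 0.0527). With a pseudocount of 0.1 its adjusted p was 0.0663. Without counts, differences of genes near 0 are limited by unknown depth.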
